A study of Mus musculus with 2 samples.

Results

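The genes described are 39 genes of DNA replication, chosen by symbol from 31053 genes measured. They fall into 4 genes of origin licensing, 11 of the replicative helicase, 6 of the sliding clamp and its loader, 6 of the polymerases and primase, 2 of single-strand binding, 2 of flap removal and ligation, 3 of nucleotide supply, and 5 of chromatin assembly, protein turnover and histone mRNA. All 39 were found in both libraries. RNA of single cells came from squamous tumours of the tongue in wild type C57BL/6 mice, a model of head and neck cancer made with the carcinogen 4NQO. All mice carried such tumours, and for 10 days they received either JQ1, which blocks the acetyl-lysine pocket of BET bromodomain proteins, or control. There is 1 library per treatment. No value therefore has a replicate, no test was made, and an effect of JQ1 cannot be told apart from a difference between libraries. The sources used here do not state the age or sex of the mice, or how many gave each library.

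DNA replication begins in G1, when the origin recognition complex, Cdc6 and Cdt1 load rings of Mcm2 to Mcm7 onto DNA. At the start of S phase Cdc45 and the GINS complex join the rings to make the working helicase, primase and the polymerases follow, and Pcna, loaded by replication factor C, holds the polymerases on DNA. Most of these genes are switched on together at the G1 to S boundary by E2F factors once the retinoblastoma protein lets go of them, and in squamous epithelium dividing cells lie mainly in the basal and near-basal layers.

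RNA molecules were counted by UMIs (unique molecular identifiers), of which the control library held 118382532 in 9754 barcodes and the JQ1 library 99565417 in 16233 barcodes. Filters left 8150 cells in control, at a median of 11300 UMIs, and 14044 in JQ1, at a median of 3879. Cells were assigned to classes by marker genes, and 40 barcodes occurred in both libraries, 28 of them among kept cells. The epithelial class held 5137 control and 1369 JQ1 cells, with medians of 17570 and 11520 UMIs. It was not split into tumour and normal epithelium. All 12 of its epithelial markers were present in both libraries. Levels are UMIs scaled to 1000000 UMIs of the class (CPM), not per length, ratios are JQ1 over control, and ranges in brackets are 95% intervals that cover counting error only. RNA of other cells was present in the epithelial class and differed between libraries. Erythroid markers (6, of which 0 and 1 were at 0) summed to 0.716 CPM in control against 422 CPM in JQ1. Gland markers (8, of which 1 and 2 were at 0) summed to 27.0 and 314 CPM, 6 fibroblast markers to 62.5 and 191 CPM, 5 immature neutrophil markers to 34.2 and 66.8 CPM, and 7 T cell markers to 73.2 and 19.1 CPM. The 7 neutrophil markers, which include the keratinocyte products S100a8 and S100a9, summed to 4041 and 1759 CPM. The part of this RNA in the results was not tested.

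Replication genes were higher in the epithelial cells of the JQ1 library, all along the pathway. Summed, the 39 genes had 789 CPM (783 to 794) in control against 1288 CPM (1272 to 1304) in JQ1, a ratio of 1.63 (1.61 to 1.66). The ratio was above 1 for all 39 genes, and its interval lay above 1 for 38 of them, the exception being Gins4. Neither count was taken over all genes of the class, so neither has a share to set beside it. The median ratio over all measured genes, given below as a log2 value, was also above 1. A gene counted as measured with 20 or more UMIs in all and a level of 10 CPM in at least 1 library. This held for 36 members, and 27 of these were at least 1.5-fold higher and 0 at least 1.5-fold lower. Over all 8188 measured genes of the class, 10.8% were at least 1.5-fold higher and 4.65% at least 1.5-fold lower. The median log2 ratio was 0.78 over the measured members and 0.14 over all measured genes. With the latter set to 0 the summed ratio was 1.48 and 22 members passed 1.5-fold. No share over all genes is given at that scaling, and the 10.8% above is for unscaled ratios. At a threshold of 2-fold, 7 members were higher and 0 lower, against 2.74% and 2.19% of all measured genes.

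**Figure D1:**
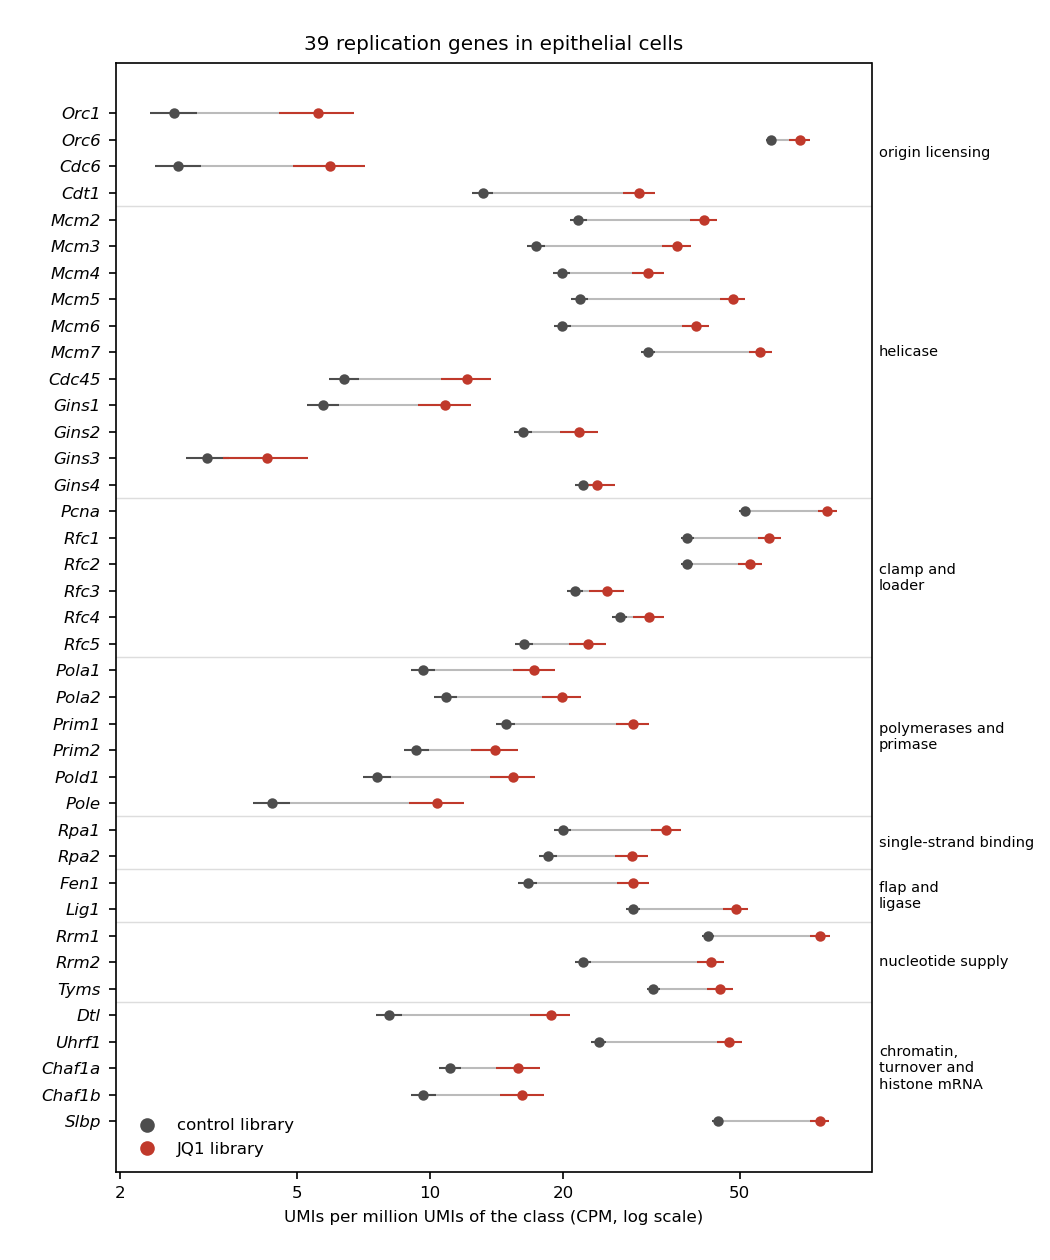
Levels of the 39 genes in epithelial cells of the control library (grey) and the JQ1 library (red), in CPM on a log axis, grouped by role, with exact 95% Poisson intervals as bars. The JQ1 point lies to the right of the control point for all 39 genes, and the gap is smallest for Gins4.

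The licensing genes differed among themselves. Cdt1, which brings the Mcm rings to origins and is destroyed once S phase starts, had 13.2 CPM (12.5 to 13.9) in control against 29.6 CPM (27.2 to 32.2) in JQ1, a ratio of 2.25. Orc1 and Cdc6, the origin subunit and the loading ATPase, were scarce and did not count as measured. Orc1 had 2.64 and 5.58 CPM from 262 and 107 UMIs, and Cdc6 2.70 and 5.95 CPM from 268 and 114 UMIs. Orc6, a small subunit of the origin complex, was close in both libraries at 59.0 and 68.5 CPM (ratio 1.16, 1.09 to 1.23). Because Orc6 gave 5850 of the 7686 control UMIs of the licensing genes, their sum had a ratio of only 1.42 (1.35 to 1.49).

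Among the helicase genes the 6 ring subunits were higher by 1.57-fold to 2.22-fold. Mcm5 had 21.8 CPM (20.9 to 22.7) in control against 48.2 CPM (45.2 to 51.5) in JQ1. The ratio was 2.07 for Mcm3, 2.0 for Mcm6, 1.92 for Mcm2, 1.80 for Mcm7 and 1.57 for Mcm4, although the 6 proteins form 1 ring. Mcm4 had 19.9 and 31.1 CPM, and its interval (1.43 to 1.72) did not overlap that of Mcm5 (2.05 to 2.39). Of the partners that turn the ring into a helicase, Cdc45 had 6.41 and 12.1 CPM and Gins1 5.73 and 10.8 CPM, a ratio of 1.89 for both. The other GINS subunits were closer: Gins2 had 16.2 and 21.8 CPM, Gins3, which did not count as measured, 3.15 and 4.28 CPM, and Gins4 22.1 and 23.9 CPM (ratio 1.08, 0.975 to 1.20). The 11 helicase genes together had a ratio of 1.76 (1.71 to 1.81).

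The clamp and its loader had the smallest summed ratio of the 8 roles, 1.40 (1.36 to 1.45), but its interval overlapped that of origin licensing (1.35 to 1.49). Pcna, the ring that tethers polymerases, had 51.3 CPM (49.9 to 52.8) in control against 79.0 CPM (75.0 to 83.0) in JQ1. Rfc1, the large loader subunit, had 38.1 and 58.4 CPM. Its ratio of 1.53 was close to the 1.54 of Pcna. The small loader subunits were below 1.5-fold, with ratios of 1.39 for Rfc2 and Rfc5, 1.18 for Rfc3 and 1.16 for Rfc4. 

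The polymerases and primase had the largest summed ratio, 1.86 (1.77 to 1.96). Its interval overlapped those of other roles, among them the helicase (1.71 to 1.81) and the chromatin, turnover and histone mRNA genes (1.71 to 1.86). Pole, the catalytic subunit of the leading-strand polymerase, had 4.4 CPM (3.99 to 4.83) in control against 10.4 CPM (8.99 to 11.9) in JQ1, and its ratio of 2.36 was the largest of the measured members. Pold1, the catalytic subunit of the lagging-strand polymerase, had 7.61 and 15.4 CPM. The primase subunit Prim1 had 14.8 and 28.7 CPM and its partner Prim2 9.31 and 14 CPM. Ratios were 1.78 for Pola1 and 1.83 for Pola2, which belong to the polymerase that extends the primers.

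Genes that protect, join and feed the new strands were also higher. Rpa1 and Rpa2, which coat single-stranded DNA, had ratios of 1.71 and 1.54. Fen1, which trims the flaps of Okazaki fragments, had 16.6 and 28.8 CPM and the ligase Lig1 28.7 and 49.0 CPM. The ribonucleotide reductase subunits Rrm1 and Rrm2, which make deoxynucleotides, had 42.4 and 76.0 CPM and 22.1 and 43.0 CPM. Tyms, which makes thymidylate, had 32.0 and 45.1 CPM, a ratio of 1.41 (1.31 to 1.52).

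In the last role Dtl, the adaptor through which a ubiquitin ligase destroys Cdt1 in S phase, had 8.08 CPM (7.53 to 8.66) in control against 18.7 CPM (16.8 to 20.8) in JQ1, a ratio of 2.32. Uhrf1, which brings the maintenance DNA methyltransferase to new DNA, had 24.0 and 47.4 CPM. The chromatin assembly subunits Chaf1a and Chaf1b had ratios of 1.42 and 1.67. Slbp, which binds the stem-loop of histone mRNAs, had 44.6 and 75.8 CPM. The summed ratio of these 5 genes was 1.78 (1.71 to 1.86).

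Promoters were read for the members because the genes were higher together and E2F sites are the shared feature best known among them. RefSeq promoters of build GRCm38.p6, running from 250 bases before to 50 after the start, were matched by symbol for 32 of the 39 genes, in 37 promoters. The E2F-type octamers TTTCCCGC, TTTCGCGC, TTTGCCGC and TTTGGCGC were searched on both strands, and neighbouring matches may overlap. At least 1 was present in 14 of the 37 member promoters (37.8%), against 2.27% of all 32851 promoters of that length and 1 of 18 promoters of mitosis genes. The letters CCAAT were present in 64.9% of member promoters, in 37.4% of all promoters and in 88.9% of those of mitosis genes. A match shows only that the letters are there. In epithelial cells the 14 genes with an octamer had a median ratio of 2.01 (from 1.18 for Rfc3 to 2.32 for Dtl), and the 18 genes without one a median of 1.69 (1.16 to 1.95). These ranges overlap, and the difference was not tested. Of the 14, Orc1, Cdc6 and Gins3 did not count as measured. Lig1, Mcm7 and Uhrf1 held an octamer in only 1 of their promoters. Below are the 160 bases before the start, in the direction of the gene, for 4 genes with an octamer and for Orc6, which has none and had the lowest ratio of the matched genes. Capitals mark the octamers on either strand, and a run longer than 8 is made of overlapping matches.
Mcm5, chr8:75109349-75109508, plus strand: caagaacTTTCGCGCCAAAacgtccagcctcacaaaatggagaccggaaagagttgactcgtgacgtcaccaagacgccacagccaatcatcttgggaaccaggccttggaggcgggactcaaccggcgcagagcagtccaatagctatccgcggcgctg
Mcm6, chr1:128359706-128359865, minus strand: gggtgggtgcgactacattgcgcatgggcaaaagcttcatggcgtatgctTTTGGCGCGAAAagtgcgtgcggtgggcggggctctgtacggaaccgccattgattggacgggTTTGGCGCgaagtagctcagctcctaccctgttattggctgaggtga
Dtl, chr1:191575545-191575704, minus strand: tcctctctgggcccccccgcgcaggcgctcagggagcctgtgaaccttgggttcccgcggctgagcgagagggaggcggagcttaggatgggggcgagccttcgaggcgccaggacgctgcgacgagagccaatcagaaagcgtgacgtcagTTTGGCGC
Pola1, chrX:93632156-93632315, minus strand: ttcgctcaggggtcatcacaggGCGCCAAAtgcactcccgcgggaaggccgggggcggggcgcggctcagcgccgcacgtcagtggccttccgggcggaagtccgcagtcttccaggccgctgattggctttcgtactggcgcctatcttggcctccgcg
Orc6, chr8:85299472-85299631, plus strand: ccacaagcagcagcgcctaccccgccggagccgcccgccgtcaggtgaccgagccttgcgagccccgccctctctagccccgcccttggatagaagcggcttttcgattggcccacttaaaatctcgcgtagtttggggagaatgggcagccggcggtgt
In Mcm5 the matches begin 153 and 149 bases before the start, in Mcm6 110, 106 and 47 bases before it, in Dtl 8 and in Pola1 138 bases before it.

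The share of cells with replication RNA was compared at equal depth, since a deeper cell shows more genes. From each cell 1000 UMIs were drawn, averaged over all possible draws, and 34 control and 67 JQ1 epithelial cells with fewer were left out. A UMI of any of the 39 genes was then present in 43.7% (42.3 to 45.0) of the control epithelial cells and in 55.5% (52.7 to 58.2) of those from JQ1, a difference of 11.8 percentage points (8.78 to 14.8). The mean over positive cells was 1.73 UMIs in control and 2.20 UMIs in JQ1. Mature neutrophils, which do not divide, were positive in 27.0% of control and 24.2% of JQ1 cells, at median depths of 1610 and 1697 UMIs before drawing. They give a low background for the epithelial shares, since other classes were positive more often and also differed. No replication UMI was found in 56.3% of control and 44.5% of JQ1 epithelial cells. This held for 64.7% and 57.4% of endothelial cells and 66.0% and 59.8% of macrophages or dendritic cells. For Schwann cells it was 57.1%, of only 31 control cells, and 47.45%. Without equal depth the direction turned: 96.4% of control and 91.5% of JQ1 epithelial cells had a UMI. At least 3 of 1000 UMIs were found in 7.57% (6.86 to 8.33) of the control epithelial cells and in 16.4% (14.5 to 18.6) of those from JQ1, against 1.22% and 0.224% of mature neutrophils.

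A deeper draw of 5000 UMIs, chosen after the data were seen, was used to count cells rich in replication RNA. It kept 4680 control and 1035 JQ1 epithelial cells and left out 457 and 334. At least 15 replication UMIs were found in 4.06% (3.51 to 4.66) of cells in control against 13.4% (11.4 to 15.6) in JQ1. The cut divides a continuous range: in 1 random draw 119 control and 59 JQ1 cells had 12 to 14 UMIs, and 75 and 46 had 15 to 17. The rich cells averaged 19.6 UMIs in control and 21 UMIs in JQ1, while the rest averaged 3.09 and 4.27 UMIs. Rich cells thus held 21.2% of the replication UMIs in control and 43.2% in JQ1. In 1 random draw, with 187 control and 147 JQ1 rich cells, a rich cell showed a median of 29 of the 39 genes at full depth in control and 27 in JQ1, and a cell with under 5 replication UMIs showed 5 in both. These medians are not at equal depth. Rich cells had median depths of 21990 UMIs in control and 16510 UMIs in JQ1, and cells with under 5 had 18310 and 14020 UMIs. At least 3 UMIs of 20 mitosis genes were found in 76.5% (69.7 to 82.4) of the control and 70.7% (62.7 to 78.0) of the JQ1 rich cells. Among cells with under 5 replication UMIs this share was 13.9% and 16.0%.

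**Figure D2:**
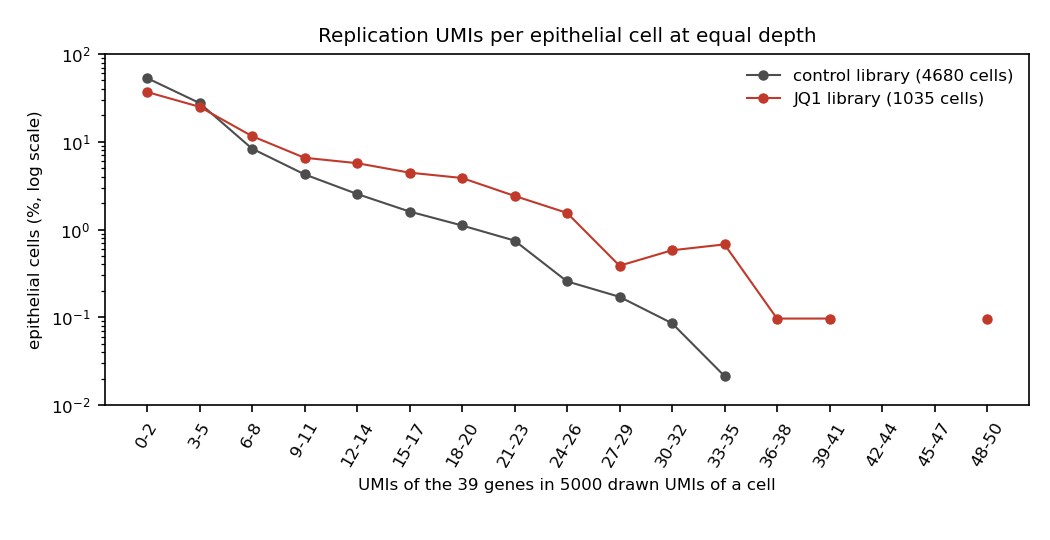
Share of epithelial cells (percent, log axis) by the number of UMIs of the 39 genes in 5000 UMIs drawn once from each cell, for the control library (grey, 4680 cells) and the JQ1 library (red, 1035 cells); a bin with no cell has no point. From 6 UMIs up the JQ1 share lies above the control share in each bin that holds cells of both libraries.

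The size of the difference varied with the depth of the cells, in depth bins set after the data were seen. In epithelial cells under 5000 UMIs the 39 genes summed to 837 CPM in 457 control cells and 932 CPM in 334 JQ1 cells, a ratio of 1.11 (1.02 to 1.22). There 5 of 31 measured members were at least 1.5-fold higher and 1 lower, against 17.9% and 13.5% of 8739 measured genes, and the median log2 ratio was 0.048. The ratio was 1.80 (1.71 to 1.90) from 5000 to under 10000 UMIs, 1.99 (1.94 to 2.04) from 10000 to under 20000 UMIs and 1.52 (1.49 to 1.55) at 20000 UMIs and over. The range of 10000 to under 20000 UMIs, which held 1890 control and 430 JQ1 cells, had levels of 699.9 and 1395 CPM. Subtypes varied with depth too. At 20000 UMIs and over the ratio was 1.13 (1.06 to 1.20) in Krt15 cells, 1.31 (1.26 to 1.37) in Krt16 and Krt6a cells, 1.47 (1.34 to 1.6) in Krt13 and Krt4 cells and 1.48 (1.44 to 1.52) in other keratinocytes. Under 5000 UMIs it was 1.04 (0.876 to 1.24) in Krt15 cells. In Krt13 and Krt4 cells from 5000 to under 10000 UMIs it was 0.942 (0.589 to 1.495), from 15 control and 13 JQ1 cells. Every other depth bin of these subtypes had a ratio above 1.

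The keratinocyte mix differed between the libraries, so the sum was also taken within keratinocyte subtypes. Cells high in Krt15, a keratin of the basal layer, were 12.4% of control and 28.4% of JQ1 epithelial cells. Cells with Stmn2 numbered 712 in control and 5 in JQ1, and those with Krt42 594 and 5; 5 cells are too few to compare, and the control levels were 871 CPM in the Stmn2 cells and 783 CPM in the Krt42 cells. In each of the 4 other groups the JQ1 level was higher, by 1.44-fold to 1.56-fold. With both libraries weighted to the same mix of those 4 groups the levels were 856 and 1296 CPM, a ratio of 1.51, and the share of positive cells at 1000 UMIs differed by 10.0 points.

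In Krt15 cells (636 and 389) the 39 genes summed to 959 CPM (937 to 981) in control against 1410 CPM (1376 to 1445) in JQ1, a ratio of 1.47. Of 36 measured members, 14 were at least 1.5-fold higher and 0 lower, against 12.7% and 2.17% of 8167 measured genes. Dtl had 12.1 and 26.2 CPM, Pold1 8.14 and 18.3 CPM and Lig1 29.1 and 55.9 CPM, the ratios farthest above 1 by their intervals. Of the members with most UMIs, Rrm1 and Slbp had ratios of 1.63 and 1.56, Mcm7 1.46, Pcna 1.42 and Orc6 1.12. The share of cells with at least 15 of 5000 UMIs was 4.93% (3.27 to 7.08) in control and 11.8% (8.50 to 15.9) in JQ1.

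Krt13 and Krt4 mark suprabasal cells that leave the cycle and differentiate, and their cells (328 and 128) had the lowest replication level of the 4 groups in both libraries, 300.1 CPM (288 to 313) in control against 444 CPM (416 to 473) in JQ1. Of 17 measured members 8 were at least 1.5-fold higher and 0 lower, against 15.5% and 6.25% of 7325 measured genes. Mcm5 had 3.86 and 11.1 CPM from 28 and 24 UMIs, Mcm6 6.06 and 13.4 CPM from 44 and 29 UMIs, and Rfc1 23.6 and 41.2 CPM from 171 and 89 UMIs. Pcna and Slbp had ratios of 1.47 and 1.40, and the intervals of Orc6 and Rfc2, at 1.34 and 1.20, held 1. Rich cells were nearly absent: the averaged share with at least 15 of 5000 UMIs was 0.304% in control and 0.931% in JQ1, a difference of 0.627 points (-1.03 to 5.62). Erythroid markers in these cells summed to 1.24 CPM in control against 1939 CPM in JQ1, and their part in the result was not tested.

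Krt16 and Krt6a are keratins of stressed and wounded epithelium. Their cells (1374 and 260) had 536 CPM (528 to 545) in control against 774 CPM (749 to 800) in JQ1. Of 28 measured members 12 were at least 1.5-fold higher and 0 lower, against 11.1% and 5.42% of 7761 measured genes. Rrm2 had 13.0 and 34.7 CPM, a ratio of 2.68 (2.21 to 3.23), and Mcm3 11.4 and 24.3 CPM. Pold1, which did not count as measured in these cells, had 3.36 and 9.10 CPM. Ratios of the members with most UMIs were 1.15 for Pcna, 1.18 for Orc6, 1.42 for Rfc1 and 1.56 for Rrm1 and Slbp. With the marker gate doubled the summed ratio of these cells was 1.20.

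The other keratinocytes, which passed none of the keratin gates (1493 and 582 cells), had the highest replication level, 1137 CPM (1123 to 1150) in control against 1772 CPM (1742 to 1802) in JQ1. Of 37 measured members 26 were at least 1.5-fold higher and 0 lower, against 9.94% and 2.67% of 8312 measured genes. Cdc6, the loading ATPase, had 4.08 and 10.7 CPM, Cdt1 20.2 and 43.3 CPM and Pole 6.89 and 16.2 CPM. Orc6, with 78.6 and 85.8 CPM, was again close in both libraries, while Pcna had 68.5 and 109 CPM and Rrm1 64.9 and 102 CPM. The ratios of Slbp and Rfc2 were 1.6 and 1.40. At least 15 of 5000 UMIs were found in 7.68% (6.28 to 9.26) of cells in control against 20.6% (16.8 to 24.7) in JQ1, where rich cells held 29.9% and 50.8% of the replication UMIs.

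**Figure D3:**
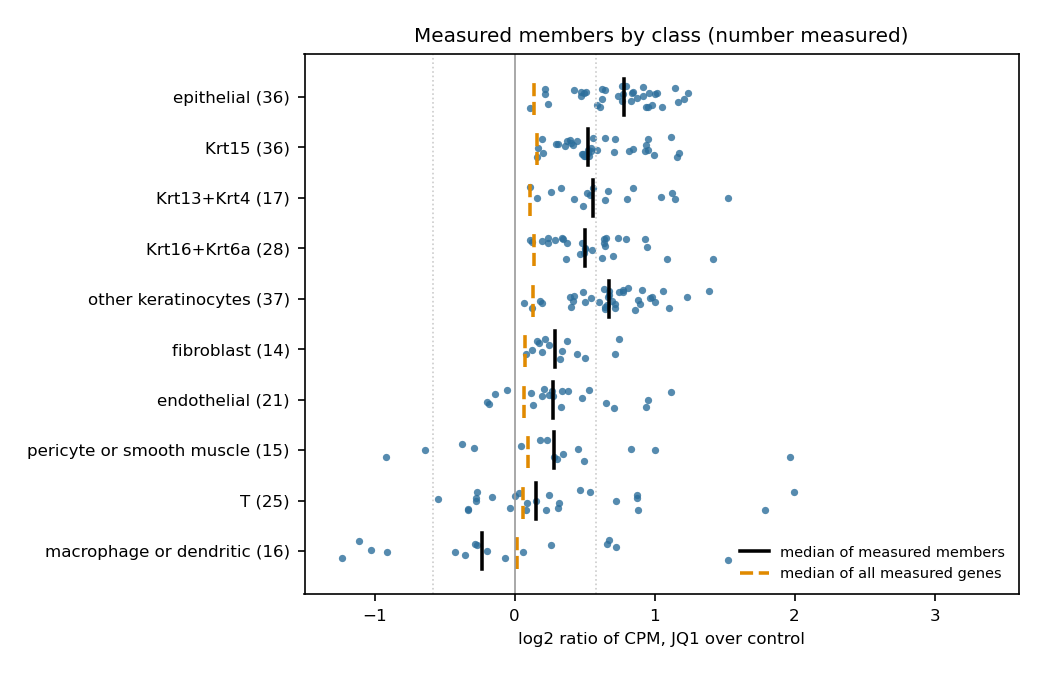
Log2 ratio of CPM, JQ1 over control, of each measured member (points) in each class, with the median of the measured members (black bar), the median of all measured genes (orange dashed bar) and 1.5-fold in either direction (dotted lines). In the epithelial class and its 4 groups all measured members lie above 0, while points lie on both sides of 0 from the endothelial class down.

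The groups above are gates on a few keratins, so the sum was also taken in each epithelial cluster of a joint clustering of all genes, an alternative chosen after the data were seen. The ratio was 1.55 (1.52 to 1.59) in the largest cluster (1460 control and 746 JQ1 cells, with Krt14, Krt17 and Krt5 as leading keratins), 1.55 (1.5 to 1.6) in a cluster led by Krt14 and then Krt13 (874 and 343 cells) and 1.62 (1.53 to 1.72) in a Krt6a and Krt16 cluster of 507 and 55 cells. It was 1.19 (1.14 to 1.25) in a second Krt6a and Krt16 cluster of 1154 and 111 cells. In the cluster led by Krt13, which was also the highest in Krt6b (315 and 51 cells), the levels were 218 and 237 CPM, and the interval of the ratio, 0.958 to 1.22, held 1, beside a ratio of 1.48 in the Krt13 and Krt4 gate. In a cluster of 82 control and 133 JQ1 cells with medians of 4956 and 4778 UMIs the direction turned, with 667 CPM in control and 576 CPM in JQ1, a ratio of 0.864 (0.752 to 0.995). A further cluster of 873 control cells held only 5 JQ1 cells.

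In the classes compared outside the epithelium the summed ratios ran from 0.901 in mature neutrophils to 1.40 in gland cells, below the 1.63 of the epithelial class. This order is for cells of all depths together. Under 5000 UMIs the ratio was 1.11 in epithelial cells, 1.19 (1.11 to 1.285) in fibroblasts and 1.285 (1.16 to 1.43) in endothelial cells. From 10000 to under 20000 UMIs it was 1.99 in epithelial cells, 1.71 (1.44 to 2.05) in fibroblasts, of which control held 46, and 1.19 (1.05 to 1.355) in endothelial cells. In fibroblasts (838 and 4657 cells) the 39 genes summed to 398 CPM (377 to 421) in control against 495 CPM (486 to 505) in JQ1, a ratio of 1.24 (1.17 to 1.32). Of 14 measured members 2 were at least 1.5-fold higher and 0 lower, against 5.47% and 2.39% of 8946 measured genes. They were Rpa2, named after its values were seen, with 9.55 and 16.0 CPM, and Rrm1, with 14.8 and 24.4 CPM. The ring subunits Mcm2 and Mcm3 were below the level to count as measured, at 2.77 and 7.13 CPM and at 3.08 and 7.22 CPM. Slbp, Pcna, Orc6 and Rfc1 had ratios of 1.12, 1.26, 1.06 and 1.14. At 1000 UMIs, 34.2% of control and 39.6% of JQ1 fibroblasts were positive, but only 1.41% and 1.87% had at least 3 UMIs, and the interval of this difference held 0 (-0.680 to 1.22).

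In endothelial cells (481 and 2021) the levels were 541 CPM (510 to 573) and 643 CPM (627 to 659), a ratio of 1.19 (1.12 to 1.27). Of 21 measured members 5 were at least 1.5-fold higher and 0 lower, against 8.69% and 2.83% of 8400 measured genes. Rrm1 had 15.1 and 29.0 CPM, Mcm2 10.9 and 21 CPM and Pold1 5.19 and 11.2 CPM, the last from only 11 control UMIs. The other 2 of the 5, named after their values were seen, were Mcm3 and Rpa2, at 1.57 and 1.63. Tyms stood lower in JQ1, at 60.4 and 52.7 CPM, with an interval (0.718 to 1.07) that held 1. Slbp had a ratio of 1.40 and Orc6 of 1.20, and Pcna and Rfc2 had ratios of 1.09 and 0.964.

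Pericytes or smooth muscle cells (137 and 657) had 480.1 and 514 CPM, with a ratio of 1.07 (0.942 to 1.22). Of 15 measured members 3 were at least 1.5-fold higher and 2 lower, against 20.1% and 8.05% of 8745 measured genes. Rrm1 was lower in these JQ1 cells, with 53.5 CPM from 32 UMIs in control and 28.3 CPM from 82 UMIs in JQ1, a ratio of 0.528 (0.347 to 0.821). The other 4, named after their values were seen, were Mcm4 (0.641), Orc6 (1.78), Mcm2 (3.92, 1.01 to 33.5) and Mcm6 (2.01), each from 11 or fewer control UMIs. Slbp, Pcna, Rfc1 and Rpa1, the members with most UMIs, had ratios of 1.22, 1.37, 1.41 and 0.818 with intervals that held 1.

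T cells had the highest level of the immune and stromal classes compared, 895 CPM (813 to 982) in 206 control cells and 981 CPM (924 to 1041) in 372 JQ1 cells, and the interval of the ratio, 1.10, held 1 (0.981 to 1.23). Of 25 measured members 6 were at least 1.5-fold higher and 0 lower, against 17.7% and 9.02% of 6716 measured genes. The 6 were named after their values were seen, each from 8 or fewer control UMIs. Mcm3 had 10.2 and 35.2 CPM, Mcm4 14.2 and 23.5 CPM and Pola2 4.07 and 16.25 CPM. Lig1 had 14.2 and 26.2 CPM, and Rpa1 and Tyms each had 16.3 and 29.8 CPM. The helicase genes together had a ratio of 1.43 (1.11 to 1.855), and the intervals of all other roles held 1. Pcna had 102 CPM in both libraries, and Slbp 150.5 and 134.5 CPM. Rfc2, Mcm6 and Rrm1 had ratios of 1.06, 1.24 and 1.06. Positive cells at 1000 UMIs were 53.8% and 56.2%.

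Macrophages or dendritic cells (144 and 248) had 489.6 and 501 CPM, a ratio of 1.02 (0.892 to 1.18). Of 16 measured members 4 were at least 1.5-fold higher and 4 lower, against 19.2% and 12.4% of 6817 measured genes. Slbp, 1 of the 4 higher, had 42.0 and 66.3 CPM, with an interval of 1.01 to 2.54. Also among the higher were Cdt1 and, named after their values were seen, Mcm7 and Rfc3. Mcm7 had 7.77 and 22.4 CPM from 5 and 27 UMIs, and Rfc3 7.77 and 12.4 CPM from 5 and 15 UMIs. The 4 lower, named after their values were seen and each from 15 or fewer UMIs in both libraries, were Rfc5 (0.426, 0.182 to 0.976), Rpa1 (0.462), Gins4 (0.492) and Tyms (0.533), the last 3 with intervals that held 1. Pcna had 82.4 and 78.7 CPM, and Rfc2, Cdt1 and Orc6 had ratios of 1.05, 1.65 and 0.782 with intervals that held 1. Mature neutrophils (324 and 331 cells) had 304 and 274 CPM, with an interval of the ratio from 0.721 to 1.12, and only Slbp and Pcna of the members named counted as measured, at 0.712 and 1.21. Neither was 1.5-fold higher or lower, against 12.8% and 19.9% of 3805 measured genes. Erythroid markers outside the epithelium also differed, at 1.54 CPM in control against 571 CPM in JQ1 in fibroblasts, 11.3 and 456 CPM in endothelial cells, 0 and 518 CPM in T cells and 0 and 330 CPM in macrophages or dendritic cells. Gland markers in fibroblasts summed to 37.6 and 485 CPM. Epithelial markers went the other way, at 668 and 235.5 CPM in fibroblasts and 484 and 207 CPM in endothelial cells. They summed to 872 and 375 CPM in T cells and 1037 and 297 CPM in macrophages or dendritic cells. The part of this RNA in these values was not tested.

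**Figure D4:**
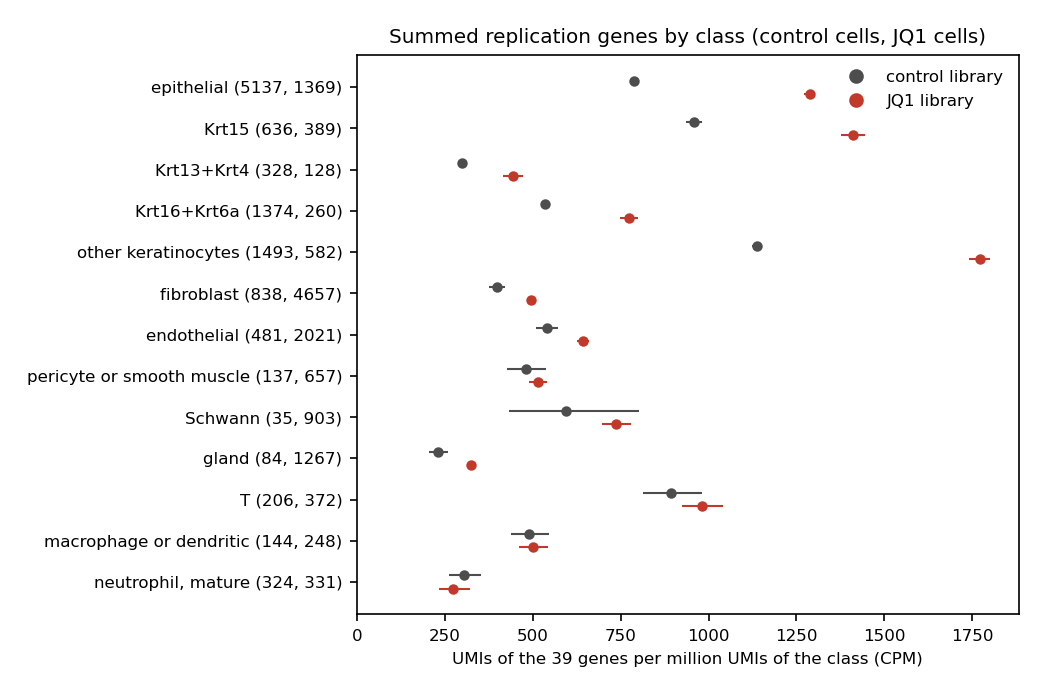
Summed level of the 39 genes in CPM, by class, in the control library (grey) and the JQ1 library (red), with exact 95% Poisson intervals as bars and the number of control and JQ1 cells in brackets. The widest gaps are in the epithelial class and its groups, and the intervals of both libraries overlap in pericytes, Schwann cells, T cells, macrophages and mature neutrophils.

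Immature neutrophils and erythroid cells came almost wholly from the JQ1 library, so their levels are given for it alone. Immature neutrophils, which still divide in bone marrow, numbered 10 in control and 159 in JQ1, and the JQ1 cells had 1476 CPM (1401 to 1555), above the 1288 CPM of its epithelial class. The share of cells did not follow this order: at 1000 UMIs 66.4% of them had no replication UMI, against 44.5% of JQ1 epithelial cells. The Pcna level of the JQ1 immature neutrophils was 100.1 CPM, Rrm2 72.2 CPM, Mcm3 71.2 CPM and Slbp 141 CPM. Erythroid cells numbered 0 in control and 216 in JQ1 and had 596 CPM (553 to 642). At 1000 UMIs only 14.7% of erythroid cells were positive, but these held 3.59 UMIs each, so the RNA was gathered in few cells, with Rrm2 at 56.4 CPM and Pole at 0 UMIs. Erythroid markers summed to 659200 CPM in the erythroid cells, which leaves fewer UMIs for other genes. The level and share of erythroid cells are therefore not on the same scale as those of other classes. Gland cells, with 84 control and 1267 JQ1 cells, had 231 CPM (205 to 259.6) in control against 324 CPM (316 to 332) in JQ1, a ratio of 1.40 (1.24 to 1.59), above that of fibroblasts and endothelial cells. Schwann cells had 596 CPM in only 35 control cells and 737 CPM in 903 JQ1 cells, and the interval of the ratio, 0.914 to 1.72, held 1.

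Other genes of the pathway were read from lists chosen together with the members. In epithelial cells, of 38 further replication genes 28 were measured, with a summed ratio of 1.33 (1.31 to 1.35). Of these, 13 were at least 1.5-fold higher and 0 lower, against 10.8% and 4.65% of all measured genes. Clspn, which carries the replication checkpoint signal, had 12.2 and 25.5 CPM, and Hells, a chromatin remodeller, 26.4 and 49.3 CPM. Some small subunits stood lower or close in the JQ1 library: Pold4, of the lagging-strand polymerase, had 64.7 and 55.2 CPM, Rpa3, the smallest single-strand binding subunit, 60.7 and 56.2 CPM, and Pole3, of the leading-strand polymerase, 53.2 and 55.0 CPM. The origin subunits Orc2 and Orc4 had ratios of 1.08 and 0.996.

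Of 17 genes of G1 to S control 14 were measured in epithelial cells. Of these, 5 were at least 1.5-fold higher and 0 lower, against 10.8% and 4.65% of all measured genes. E2f1, an activating E2F factor, had 9.77 and 14.9 CPM, and Ccne2, a cyclin E, 6.72 and 13.3 CPM. Rb1, the retinoblastoma protein that holds E2F back, had 16.3 and 13.6 CPM, and the Cdk inhibitor gene Cdkn1a 376 and 323 CPM. The ratio was above 1 for 12 of the 14, with a median log2 ratio of 0.51. Over all measured genes the median log2 ratio was 0.14, and the share above 1 was not taken. The summed ratio of this list was 1.03, and Cdkn1a was its largest term.

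Mitosis genes had a smaller summed ratio than the members in epithelial cells and a ratio below 1 in some other classes. All 20 were measured in epithelial cells, with a summed ratio of 1.34 (1.32 to 1.36). At least 1.5-fold higher were 7 and lower 0, against 10.8% and 4.65% of all measured genes. Top2a and Mki67, which are already made in S phase, had 72.3 and 143 CPM and 52.2 and 101 CPM. The other 5 past 1.5-fold were the spindle motor genes Kif11 (1.81) and Kif23 (1.54), the spindle gene Hmmr (1.66) and the checkpoint kinase genes Bub1 (1.6) and Bub1b (1.58). Of the remaining 13, Cenpf stood highest at 1.47 and Ube2c lowest, at 137 and 129 CPM. In the other keratinocytes the mitosis sum was 1221 and 1244 CPM, with a ratio of 1.02 (0.996 to 1.04) beside 1.56 for the replication members. In Krt13 and Krt4 cells it was lower in JQ1, at 262 and 163 CPM (ratio 0.623, 0.555 to 0.699), beside 1.48 for the replication members. There 4 of 10 measured mitosis genes were at least 1.5-fold lower and 0 higher, against 6.25% and 15.5% of all measured genes. The mitosis sum was also lower in endothelial cells (0.688, 0.617 to 0.770), T cells (0.449, 0.381 to 0.529) and macrophages or dendritic cells (0.304, 0.25 to 0.368), where the replication ratios were 1.19, 1.10 and 1.02. No difference between the lists was tested.

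**Figure D5:**
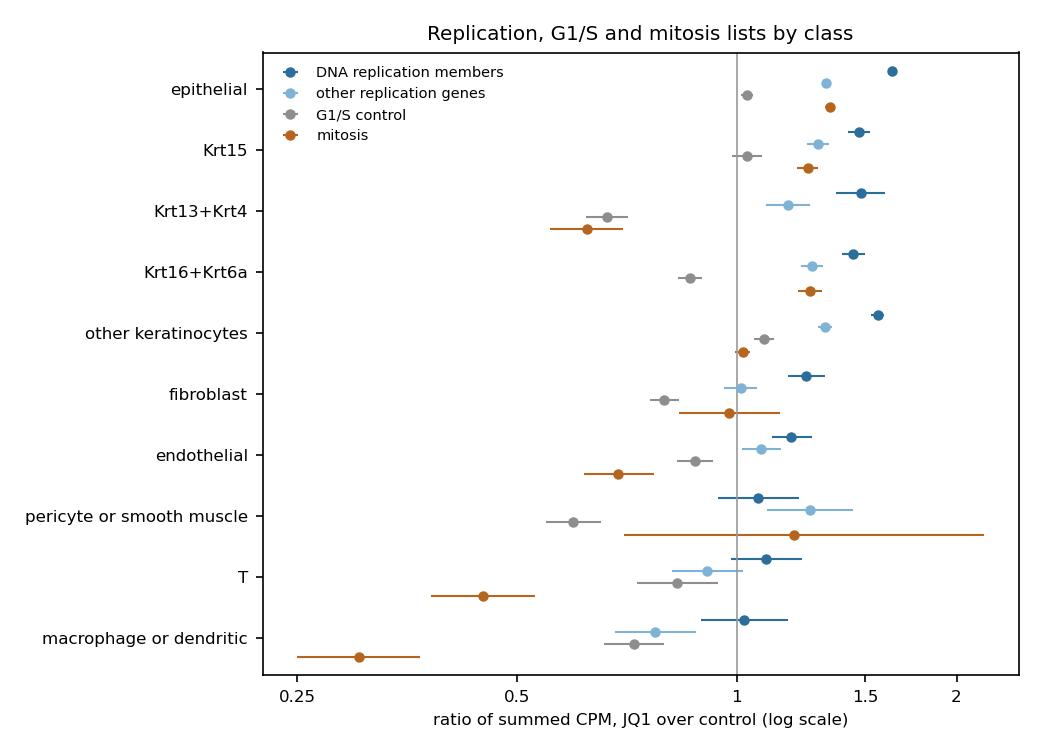
Ratio of summed CPM, JQ1 over control, on a log axis, for the 39 members, 38 other replication genes, 17 genes of G1 to S control and 20 mitosis genes in each class, with exact 95% intervals as bars. In T cells the mitosis sum lies at 0.449 while the members lie at 1.10, and in macrophages or dendritic cells at 0.304 and 1.02.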

How the data were processed

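RNA of single cells was counted in 2 libraries, 1 per treatment, made with 10x 3' chemistry and read on an MGI2000. The deposited matrices hold raw UMI counts per gene and barcode. Build mm10, Seurat 4.0.0 and Cell Ranger 3.1.0 come from the submitters' processing notes. The sources used here do not state the annotation or any barcode filter. The members and lists were chosen with earlier results of these data known.

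Kept cells had 200 or more genes and a mitochondrial share under 20% (1481 control and 1056 JQ1 barcodes reached that limit), and Scrublet calls in scanpy 1.11.5, 119 control and 424 JQ1, were removed. A cell joined the class whose summed marker UMIs per 10000 passed its cut with at least 2 marker UMIs; a cell past several cuts joined the class farthest past its cut only if that was at least 4 times the next. These cuts were set after the data were seen. The gate left S100a8, S100a9 and Ltf out of the neutrophil markers, while marker levels in the text hold the whole lists. No class was given to 436 control and 880 JQ1 cells, and several classes to 303 and 938; 301 and 720 cells lay within 1.5-fold of a cut. Epithelial cells were assigned to Stmn2, then Krt42, then the highest of Krt15, Krt13 with Krt4, and Krt16 with Krt6a.

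CPM come from UMIs summed by class within a library, with exact Poisson, conditional and Clopper-Pearson intervals and Newcombe intervals for differences of shares, at 95%. These cover counting error only. A count of 0 was set to 3 counts for a ratio. Outside the epithelial class, members named were the 5 with most UMIs and up to 3 in each direction by the interval bound nearest to 1, given at least 50 UMIs. On sums simulated as Poisson counts, which the intervals also assume, epithelial intervals held the true ratio for 95.4% of 8188 genes, and intervals excluded 1 in the true direction at 1.5-fold for 100% of the epithelial genes changed and for 36% of those in T cells (6716 genes). Alternatives changed the filter, doublets, gate, clustering (2000 variable genes, 30 components, 15 neighbours, Leiden at resolution 1.0, leidenalg 0.10.2), depth, scaling and summing one at a time. Versions were scikit-learn 1.9.0, igraph 0.11.9, matplotlib 3.10.9, pandas 2.3.3, scipy 1.17.1, numpy 2.4.6 and Python 3.11.15.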

Additional observations from a re-analysis of the deposited data

Results flagged for a closer look

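Rrm1, the large subunit of ribonucleotide reductase, differed in opposite directions in 2 classes. Its ratio was 0.528 (0.347 to 0.821) in pericytes or smooth muscle cells, from 32 control and 82 JQ1 UMIs, and 1.79 (1.69 to 1.90) in epithelial cells. The difference was not tested, and with 1 library per group it has no replicate check.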

How the results depend on the processing

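Of 135 values under the alternatives of the epithelial results and subtype ratios, 105 stayed within the counting interval, 10% or 1.5 times of the reported value, 29 moved further and 1 reversed. Of 751 further values for single subtypes and classes, 653 stayed so, 91 moved and 7 reversed. The causes were not tested. Without thinning, the difference in positive epithelial cells was -4.89 points; deeper cells show more genes by construction. Of those 7, without thinning it was -2.83 in Krt15, -13.4 in Krt13 and Krt4, -8.03 in Krt16 and Krt6a and -1.36 in other keratinocytes.

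Cells under 5000 UMIs, chosen after the data were seen, gave 3.65 points, 1.03 for UMIs per positive cell, a summed ratio of 1.11, 5 of 31 measured members higher and 1 lower (17.9% and 13.5% of all genes), and a median log2 ratio of 0.048. Their subtype ratios were 1.04 (Krt15), 1.23 (Krt16 and Krt6a) and 1.10 (other keratinocytes). The other 3 reversals lay there: Krt15 cells had 0.946 for UMIs per positive cell and a median of -0.35, and other keratinocytes a median of -0.020. Cells of 5000 to under 20000 UMIs, also chosen later, gave a summed ratio of 1.93, a median of 1.09, and 1.72, 1.96 and 1.74 in the same subtypes. With the median over all genes set to 0, the summed ratio was 1.48, the median 0.64 and the subtype ratios 1.32, 1.31 and 1.42. A gate at 2 times the cuts gave 1.67 in all epithelial cells, 1.27 in Krt13 and Krt4, 1.20 in Krt16 and Krt6a and 1.71 in other keratinocytes. UMIs per positive cell had a ratio of 1.41 at 2000 UMIs and 1.08 over cells with at least 3. The same mix of subtypes gave 1.51, the mean over cells 1.53 in Krt16 and Krt6a, clusters 1.51 in other keratinocytes, and a threshold of 2-fold 7 members. Leaving out shared barcodes, also chosen later, gave a summed ratio of 1.63 and 27 members higher.

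No paired analysis was possible because each group has 1 library. On simulated T cell sums, intervals excluded 1 for 36% of genes set to 1.5-fold; macrophages and pericytes were not simulated. The stricter filter used the doublet calls of the main filter.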
